A study of Bos indicus and Bos taurus with 17 samples.

Results

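The comparison described here is Jersey cattle on day 90 in milk (D90) against day 15 (D15), across all genes that could be compared. The cells came from milk, were labelled milk epithelial cells, and had been captured with magnetic beads that carried an antibody to cytokeratin 18 (KRT18), a keratin of simple epithelia. The cows were healthy, received no experimental treatment, and D15 stood for early and D90 for mid-lactation. By the labels, the D15 group had 3 samples, 2 from cows in lactation number 2 and 1 in lactation number 3, all taken in March. The D90 group had 2 samples, 1 from each of these lactation numbers, both taken in July, so that stage of lactation and month cannot be told apart. The study's methods describe more Jersey cows at D90 than the labels hold, with the same lactation number for all, and which of them entered the D90 value is not stated. The whole series held 17 samples in 6 groups of breed and day. For each group the deposited table gave 1 value per gene, as FPKM, the number of sequenced fragments of a gene scaled to its transcript length and to the mapped fragments of the library, so no spread between cows could be computed and no difference below was tested. The number of reads behind a value is unknown, and no interval is given.

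The table had 61264 entries, of which 25121 carried a gene name, with 21631 distinct names. Of these names, 11080 reached 1 FPKM in at least 1 of the 2 groups and 10551 did not. A ratio of D90 over D15 could be formed for 11022 names, since 30 were listed at 0 at D15 and 28 at D90. The names compared were 9086 gene symbols, 1337 Ensembl identifiers without a symbol and 599 joined names, in which overlapping genes share 1 value. At the edge of the limit, DUS4L had 1.00 and 0.573 FPKM at D15 and D90 and was included, while ARHGAP6 had 0.836 and 0.9997 FPKM and was not.

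Milk carries cells shed by the secretory epithelium of the udder together with neutrophils, macrophages and lymphocytes that pass into the alveoli. Secretory cells make caseins and whey proteins, build lactose from glucose and galactose, and assemble triglycerides into droplets that leave the cell wrapped in plasma membrane. Phagocytes that meet bacterial products signal through Toll-like receptors to NF-kB, which drives cytokine and chemokine genes. In bulk RNA from such cells, fewer cells of a type and less RNA per cell cannot be told apart.

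The log2 ratio was within 1 unit of 0 for 6643 genes (60.3%), and the median over all genes was -0.08. A ratio of at least 2 toward D90 was found for 1929 genes (17.5%), and a ratio of at least 2 toward D15 for 2450 genes (22.2%), together 39.7%. These shares are the background for every list below, in which "2-fold" means a ratio of at least 2 in the stated direction. Where a pair of FPKM values is given for a gene, D15 comes first and D90 second. With a 4-fold limit, 564 genes (5.12%) were higher and 887 (8.05%) lower at D90. The middle 50% of log2 ratios lay between -0.89 and 0.70, and the central 90% between -2.69 and 2.02. The shares differed by level of expression. Where the geometric mean of both groups was under 1 FPKM, 55.7% of 766 genes were 2-fold lower and 25.2% were 2-fold higher. In the class from 10 to 100 FPKM these shares were 18.8% and 14.3% of 3903 genes. A gene with a geometric mean under 1 FPKM was compared only if 1 group had at least 1 FPKM. Its other value was then under 1 FPKM, so the limit itself favours large ratios in that class.

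The summed FPKM of all names was 732475 at D15 and 613413 at D90. Names above 2000 FPKM numbered 76 at D15 and 33 at D90, while names above 500 FPKM numbered 211 and 238. Scaling the D90 values to the sum of all names but the milk proteins raised every log2 ratio by 0.26, and scaling by the upper quartile raised it by 0.14. The counts then became 2643 higher and 1846 lower with the first scaling, and 2282 and 2115 with the second. The sum behind the first scaling included the ribosomal protein genes, at 131209 FPKM at D15 and 48998 FPKM at D90. It also included names listed at 0 on 1 of the days. A gene or list median less than 0.26 below 0 would therefore turn positive under the first of these scalings. Statements on direction below leave such values as close to 0.

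**Figure D1:**
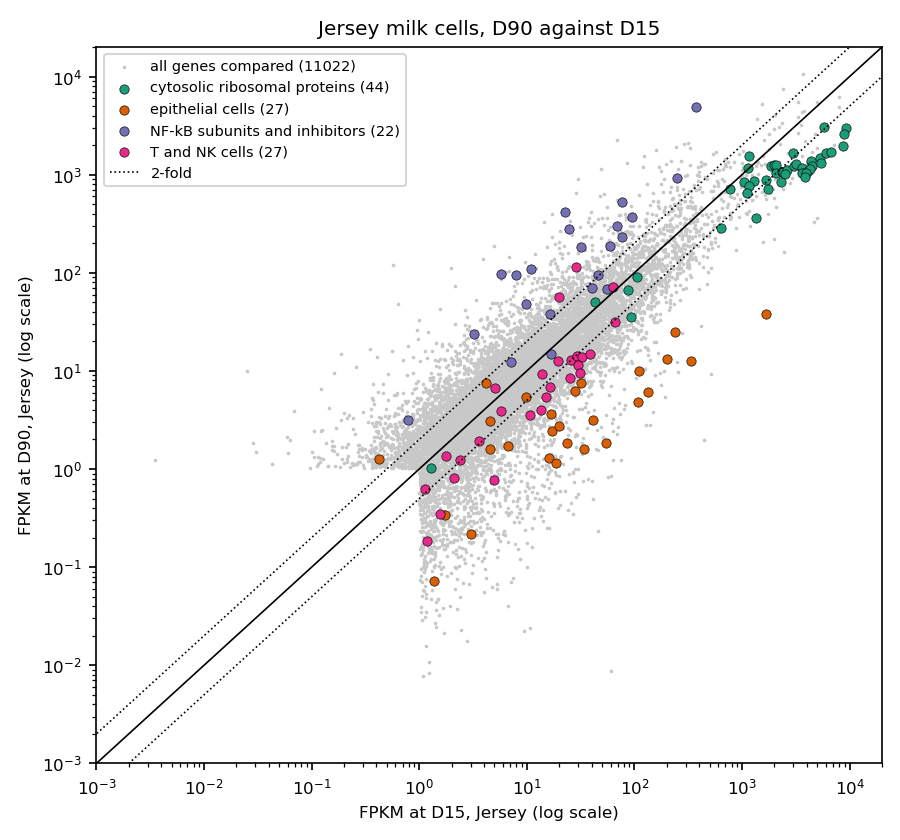
FPKM at D90 against FPKM at D15 in Jersey cattle, both on log axes, with 1 grey point per gene compared (11022), the line of equal values and dotted lines at 2-fold. Most of the 44 ribosomal protein genes (green) and of the 27 epithelial markers (orange) lie below the line of equal values, most of the 22 NF-kB genes (purple) above it, and most of the 27 T and NK cell markers (pink) somewhat below it.

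The epithelial markers were much lower at D90. Of the 28 markers, 27 could be compared, 23 were 2-fold lower and 1 was 2-fold higher, with a median log2 ratio of -3.45. No epithelial marker was listed at 0, and 1 (GRHL2) was under 1 FPKM on both days. KRT19, a keratin of luminal epithelium, had 1687 FPKM at D15 and 38.2 FPKM at D90 (log2 ratio -5.46). KRT18, whose protein the capture beads bind, had 33.7 FPKM at D15 and 1.59 FPKM at D90 (log2 ratio -4.40), and it was 21.2-fold lower at D90. The second keratin of that filament, KRT8, shared an entry with KRT4, which had 135 FPKM at D15 and 6.07 FPKM at D90 (log2 ratio -4.47). ELF5, the transcription factor of the secretory alveolar lineage, had 338 FPKM at D15 and 12.6 FPKM at D90 (log2 ratio -4.75). The same direction was therefore seen in keratins and in a lineage factor. RAB25, an epithelial GTPase of membrane recycling, had 54.6 FPKM at D15 and 1.86 FPKM at D90 (log2 ratio -4.87), and SPINT2, an inhibitor of membrane serine proteases, had 239 FPKM at D15 and 24.8 FPKM at D90 (log2 ratio -3.27). KRT14, a basal keratin, was the marker that was 2-fold higher, at 0.424 and 1.26 FPKM (log2 ratio 1.57). The E-cadherin gene CDH1 had 9.84 and 5.46 FPKM (log2 ratio -0.85), less than 2-fold lower. The summed FPKM of the list was 3158 at D15 and 165 at D90.

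Set against the label of the samples, some leukocyte markers had high values in both groups. In the study's own purity check, by quantitative PCR on D90 samples, KRT18 and CSN2 were higher in captured cells than in milk somatic cells. Its markers of leukocytes and red blood cells were lower in captured cells, and the study proposes minimal contamination. PTPRC, the pan-leukocyte phosphatase CD45, had 59.97 FPKM at D15 and 119.6 FPKM at D90 (log2 ratio 1.00), above KRT18 on both days. KRT19 and ELF5 were above PTPRC at D15, at 1687 and 338 FPKM, and below it at D90, at 38.2 and 12.6 FPKM. CD74, the invariant chain of antigen-presenting cells, had 2336 FPKM at D15 and 3391 FPKM at D90 (log2 ratio 0.54). The neutrophil markers summed to 5861 FPKM at D15 and 8606 FPKM at D90, both above the epithelial sum. The other leukocyte lists were below the epithelial sum of 3158 FPKM at D15. They summed to 1196 FPKM for macrophage, 508 FPKM for T and NK cell and 44.2 FPKM for B cell markers. At D90 the macrophage (7178 FPKM) and T and NK cell (420 FPKM) sums were above the epithelial sum of 165 FPKM. The B cell sum (36.7 FPKM) was below it. Such sums depend on the most abundant members of each list and do not count cells. In the values at D90 the epithelial marker KRT18 was at 1.59 FPKM. How far the makeup of the captured cells contributed to any difference below was not tested.

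Tight junction genes, which seal the milk space from the blood side, were mostly lower. Of 14 genes compared, 9 were 2-fold lower and 1 was 2-fold higher, with a median of -3.23, or -1.09 with 1 FPKM added to both values. CLDN3 had 109 FPKM at D15 and 4.79 FPKM at D90 (log2 ratio -4.51), and CLDN8 had 4.17 FPKM at D15 and 0.142 FPKM at D90 (log2 ratio -4.87). Both are claudins, the strand-forming proteins of the junction. CLDN3 is also among the epithelial markers above, so these lists share members and are not independent. TJP3, a scaffold protein on the inner side of the junction, had 14.04 and 1.26 FPKM (log2 ratio -3.47). CLDN1 went the other way, with 2.14 and 9.61 FPKM (log2 ratio 2.17), while F11R, a junctional adhesion molecule also present on leukocytes, was level at 15.3 and 15.6 FPKM.

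For the milk proteins the table gave few ratios. Of 9 entries found, 4 were listed at 0 at D15 and had high values at D90. These were CSN1S1 (alpha-S1-casein) at 949 FPKM, CSN2 (beta-casein) at 1068 FPKM, PAEP (beta-lactoglobulin) at 2076 FPKM and LALBA (alpha-lactalbumin, the partner of galactosyltransferase in lactose synthesis) at 297 FPKM. A value of 0 for the major milk proteins of lactating cows may be a failed estimate, and no ratio is given. For these 4 genes the study itself reports values above 0 in Jersey cattle at D15. Its FPKM values for them at D90 are also much higher than those deposited. SPP1 (osteopontin) was listed the opposite way, with 2639 FPKM at D15 and 0 at D90. CSN3 (kappa-casein), the casein for which the deposited values gave a ratio, had 1817 FPKM at D15 and 653 FPKM at D90 (log2 ratio -1.48). The study reports much higher CSN3 values on both days and a smaller difference between them, so the size of this ratio is uncertain. LPO, lactoperoxidase, an antibacterial enzyme of milk, had 44.2 FPKM at D15 and 1.61 FPKM at D90 (log2 ratio -4.78). FOLR1, which encodes a folate receptor, shared an entry with an unnamed gene at 48.8 and 2.67 FPKM (log2 ratio -4.19).

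Genes for making fatty acids in the cell had a median below 0. Of 14 genes compared, 7 were 2-fold lower and 4 were 2-fold higher, and the median was -0.96. With the scaling to the summed FPKM described above, 4 were 2-fold lower and 5 at least 2-fold higher and the median was -0.70, and with the upper quartile the counts were 5 and 5. FASN, the synthase that builds the short and medium chains of milk fat, had 188 FPKM at D15 and 9.92 FPKM at D90 (log2 ratio -4.25), 18.99-fold lower. ACACA, which makes its malonyl-CoA substrate, had 29.3 FPKM at D15 and 2.22 FPKM at D90 (log2 ratio -3.72). ACSS2 activates acetate, the main carbon source for milk fat in ruminants, and it had 113 FPKM at D15 and 16.5 FPKM at D90 (log2 ratio -2.77). The members that were 2-fold higher act on chains already made or on citrate. FADS1 and FADS2 are desaturases of polyunsaturated chains, with 1.72 and 6.11 FPKM (log2 ratio 1.83) for FADS1. ELOVL5, an elongase of such chains, had 6.16 and 21.1 FPKM (log2 ratio 1.78). ACLY, which splits citrate, shared an entry with an unnamed gene at 8.83 and 17.9 FPKM (log2 ratio 1.02). SREBF1, a regulator of lipogenic genes, had 34.9 and 16.4 FPKM (log2 ratio -1.09).

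Uptake and binding of preformed fatty acids gave a mixed picture, with 2 of 13 genes 2-fold higher, 2 at least 2-fold lower and a median of 0.51. FABP3, the fatty acid binding protein of the lactating gland, had 2454 FPKM at D15 and 164 FPKM at D90 (log2 ratio -3.90). It was the 2454 FPKM of this gene that made up most of the list's sum of 3077 FPKM at D15. SLC27A6, a fatty acid transport protein, had 5.298 FPKM at D15 and 0.0668 FPKM at D90 (log2 ratio -6.31). In contrast, FABP5 had 252 and 456 FPKM (log2 ratio 0.85) and FABP4 216 and 317 FPKM (log2 ratio 0.55), both binding proteins that macrophages also express. LPL, the lipase that frees fatty acids from lipoproteins, was level at 42.2 and 43.00 FPKM. ACSL4, a long-chain acyl-CoA synthetase, was higher at 17.2 and 54.1 FPKM (log2 ratio 1.65).

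Among the 18 genes of triglyceride assembly and lipolysis, 3 were 2-fold lower and 2 at least 2-fold higher, with a median of 0.10. GPAM, the mitochondrial acyltransferase of the first step, had 13.8 FPKM at D15 and 1.06 FPKM at D90 (log2 ratio -3.69). GPAT3 and GPAT4, the enzymes of the same step in the endoplasmic reticulum, were not lower, and GPAT3 had 13.2 and 34.8 FPKM (log2 ratio 1.40). The entry that joins DGAT2, an enzyme of the last step, with UVRAG had 108 and 46.1 FPKM (log2 ratio -1.23), while DGAT1 was close to level at 20.2 and 17.8 FPKM. G0S2, an inhibitor of lipolysis, was the most abundant member with 938 and 1632 FPKM (log2 ratio 0.80).

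Genes of fat globule secretion were lower as a group, with 7 of 9 at least 2-fold lower, 0 at least 2-fold higher and a median of -3.45. MUC1, a mucin of the globule membrane, had 44.99 FPKM at D15 and 2.48 FPKM at D90 (log2 ratio -4.18). MFGE8 (lactadherin) had 279.7 FPKM at D15 and 24.1 FPKM at D90 (log2 ratio -3.53). ABCG2, the apical transporter that moves riboflavin and drugs into milk, had 25.4 FPKM at D15 and 1.86 FPKM at D90 (log2 ratio -3.77). XDH, the oxidoreductase needed for budding of the globule, was lower by less, at 562 and 205 FPKM (log2 ratio -1.45). PLIN2, the coat protein of lipid droplets in epithelium and in macrophages, was within 2-fold at 659 and 535 FPKM (log2 ratio -0.30). With 1 FPKM added to both values the median was -2.23, and over the members with at least 1 FPKM on both days it was -1.45. The epithelial markers had a median of -3.45, also over those with at least 1 FPKM on both days, and the part of epithelial RNA in the globule gene values was not tested.

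The lactose genes did not show this pattern. Of 14 compared, 2 were 2-fold higher and 3 at least 2-fold lower, and the median was 0.51. With the scaling to the summed FPKM the counts turned to 4 higher and 1 lower. SLC2A1, the main glucose transporter of the gland, had 40.98 FPKM at D15 and 81.7 FPKM at D90 (log2 ratio 1.00). B4GALT1, the catalytic subunit of lactose synthase, had 37.6 and 53.5 FPKM (log2 ratio 0.51), and UGP2, which forms UDP-glucose, had 56.1 and 91.3 FPKM (log2 ratio 0.70). These enzymes also serve glycolysis, glycogen and glycan synthesis in other cells. SLC2A8, a glucose transporter of internal membranes, was lower at 47.1 and 16.6 FPKM (log2 ratio -1.51).

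Genes of cholesterol synthesis and uptake had a median above 0, unlike those of fatty acid synthesis. Of 26 genes, all compared, 11 were 2-fold higher and 1 was 2-fold lower, with a median of 0.92. HMGCS1, which starts the mevalonate route, had 9.56 FPKM at D15 and 53.2 FPKM at D90 (log2 ratio 2.48). MSMO1 and CYP51A1 remove methyl groups from the sterol ring. MSMO1 had 9.37 FPKM at D15 and 56.3 FPKM at D90 (log2 ratio 2.59) and CYP51A1 had 7.43 FPKM at D15 and 37.8 FPKM at D90 (log2 ratio 2.35). The member that was 2-fold lower was MVK, mevalonate kinase, with 75.7 and 19.3 FPKM (log2 ratio -1.97). SREBF2, the regulator of this pathway, was close to level at 45.2 and 53.5 FPKM (log2 ratio 0.24).

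Ketone and fatty acid oxidation genes included 6 that were 2-fold lower and 0 that were 2-fold higher among 22, with a median of -0.15. With the scaling to the summed FPKM 2 were lower and 2 higher by 2-fold, and the median was 0.11. BDH1, which interconverts ketone bodies in mitochondria, had 25.9 FPKM at D15 and 0.448 FPKM at D90 (log2 ratio -5.85). OXCT1, the enzyme that activates ketone bodies for use, had 5.07 and 8.57 FPKM (log2 ratio 0.76). CPT1A, the entry step of long chains into mitochondria, was within 2-fold at 35.5 and 41.6 FPKM (log2 ratio 0.23).

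Transporters divided by gene. Of 21 amino acid transporters, 6 were 2-fold higher and 2 at least 2-fold lower, and the list's median was 0.35. Over the 15 members with at least 1 FPKM on both days it was -0.14, with 2 higher and 0 lower by 2-fold. SLC7A4, an orphan member of the cationic amino acid transporter family, had 57.3 FPKM at D15 and 0.822 FPKM at D90 (log2 ratio -6.12). SLC38A3, a glutamine transporter, had 3.99 FPKM at D15 and 0.0562 FPKM at D90 (log2 ratio -6.15). SLC7A11, the cystine-glutamate exchanger of antioxidant defence, had 0.412 and 2.33 FPKM. The abundant members SLC1A5 and SLC3A2 stayed within 2-fold, at 149.5 and 134 FPKM for SLC1A5. Of 22 transporters of calcium, phosphate and zinc, 5 were 2-fold higher and 4 at least 2-fold lower, with a median of 0.38. SLC30A2, which loads zinc into secretory vesicles of the gland, had 9.97 FPKM at D15 and 0.174 FPKM at D90 (log2 ratio -5.84). ATP2C2, a Golgi calcium pump of secretory epithelium, had 37.3 FPKM at D15 and 0.796 FPKM at D90 (log2 ratio -5.55), whereas its widely expressed relative ATP2C1 had 6.28 and 10.8 FPKM (log2 ratio 0.78). ATP2B1, a plasma membrane calcium pump, had 10.9 and 36.1 FPKM (log2 ratio 1.72).

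Hormone and growth factor signalling was split, with 4 genes 2-fold higher and 7 at least 2-fold lower of 16 and a median of 0.01. The median was -0.63 when genes from 0.1 FPKM were included. Over the 12 members with at least 1 FPKM on both days it was 0.27, with 4 higher and 3 lower by 2-fold. The lowest ratio was that of ELF5 (log2 ratio -4.75), which is also an epithelial marker. ERBB2, a receptor tyrosine kinase of epithelium, had 2.62 and 0.219 FPKM (log2 ratio -3.58). IRS1, an adaptor of the insulin receptor, had 2.81 and 0.281 FPKM (log2 ratio -3.32), and the second adaptor, IRS2, was level at 17.9 and 17.8 FPKM. JAK2, the kinase bound to the prolactin receptor and to cytokine receptors, was higher at 6.55 and 18.99 FPKM (log2 ratio 1.54). STAT5A, its target factor, had 56.7 and 112 FPKM (log2 ratio 0.99). NR3C1, the glucocorticoid receptor, had 4.52 and 13.9 FPKM (log2 ratio 1.62). THRB, a thyroid hormone receptor, was lower at 4.12 and 0.641 FPKM (log2 ratio -2.68).

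**Figure D2:**
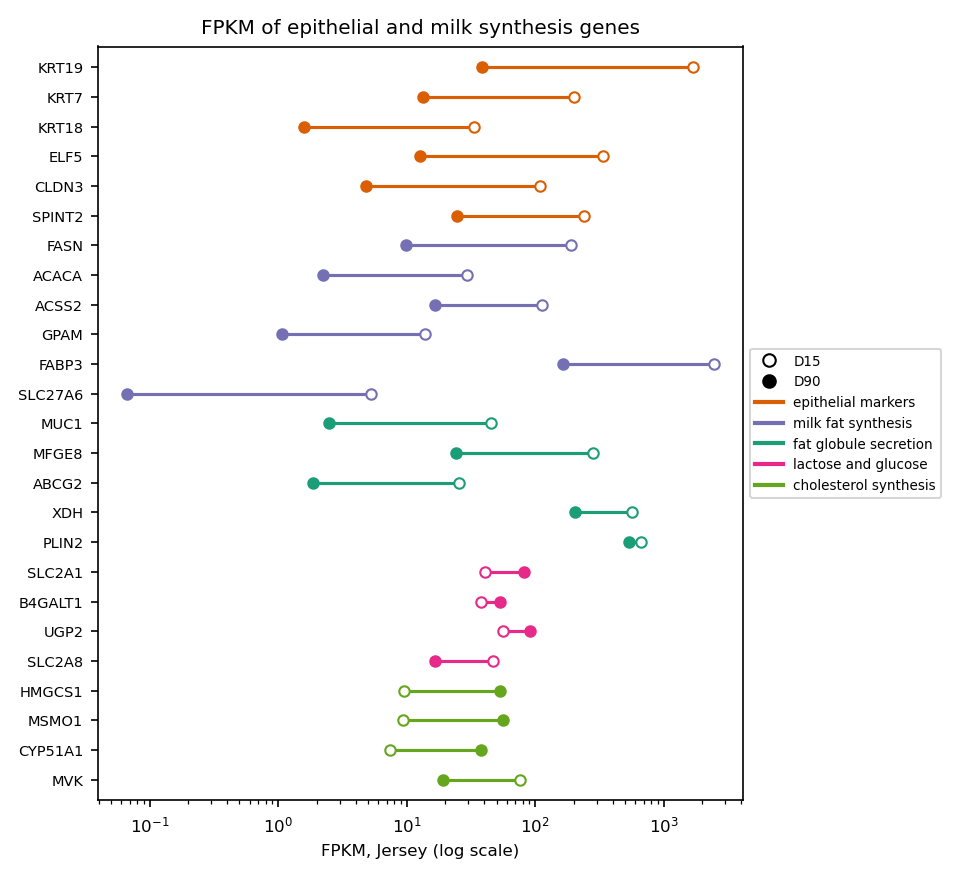
FPKM of 25 genes of epithelial identity, milk fat, globule secretion, lactose and cholesterol in Jersey cattle on a log axis, with an open circle for D15 and a filled circle for D90 joined by a line, and 1 value per group. The epithelial, milk fat and most globule genes shift to the left at D90 (KRT19 from 1687 to 38.2 FPKM), while 3 of the 4 cholesterol genes plotted shift to the right.

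NF-kB genes were higher at D90. Of 22 entries compared, 18 were 2-fold higher and 0 at least 2-fold lower, with a median of 2.06. NFKBIA, the inhibitor that NF-kB itself induces, had 371 FPKM at D15 and 4932 FPKM at D90 (log2 ratio 3.73), 13.3-fold higher. TNFAIP3, the ubiquitin editor A20 that ends the signal, had 24.4 FPKM at D15 and 278 FPKM at D90 (log2 ratio 3.51). The entry that joins BIRC2 and BIRC3, ubiquitin ligases of the TNF receptor complex, had 22.6 FPKM at D15 and 418 FPKM at D90 (log2 ratio 4.21). These are feedback or signalling genes. Among the subunits, NFKB1 had 31.7 and 182 FPKM (log2 ratio 2.52), NFKB2 had 76.9 and 524 FPKM (log2 ratio 2.77) and REL had 3.199 and 23.5 FPKM (log2 ratio 2.88). RELA, the subunit made in most cells at a steady level, was within 2-fold at 55.6 and 67.7 FPKM (log2 ratio 0.28). TANK, an adaptor of TRAF proteins, had 5.74 and 96.9 FPKM (log2 ratio 4.08). The list summed to 1293 FPKM at D15 and 9015 FPKM at D90, and without NFKBIA to 922 and 4083 FPKM.

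Upstream of it, 11 of 21 Toll-like receptor and adaptor genes were 2-fold higher and 2 at least 2-fold lower, with a median of 1.14. TLR4, the receptor for bacterial lipopolysaccharide, had 40.1 FPKM at D15 and 143 FPKM at D90 (log2 ratio 1.84). LY96, which encodes its partner MD-2, had 21.2 FPKM at D15 and 155 FPKM at D90 (log2 ratio 2.88). TLR2, the receptor for bacterial lipopeptides, had 63.5 and 177 FPKM (log2 ratio 1.48). The kinases went separate ways, since IRAK2 had 7.58 and 73.9 FPKM (log2 ratio 3.28), IRAK3, an inhibitory member, had 1.52 and 11.05 FPKM (log2 ratio 2.86), and IRAK1 had 57.1 and 23.4 FPKM (log2 ratio -1.28). The common adaptor MYD88 was within 2-fold at 122 and 214 FPKM (log2 ratio 0.81).

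Cytokine genes were higher on balance, with 18 of 35 at least 2-fold higher, 1 at least 2-fold lower and a median of 1.19. IL1B, the secreted interleukin-1 of activated phagocytes, had 243 FPKM at D15 and 1905 FPKM at D90 (log2 ratio 2.97). IL1A, its cell-bound relative, had 3.903 FPKM at D15 and 137 FPKM at D90 (log2 ratio 5.13). CSF1, the growth factor of macrophages, had 46.1 and 351 FPKM (log2 ratio 2.93). IL6 and CSF3 were low on both days, at 0.161 and 1.704 FPKM for IL6. The TNF gene was listed in separate entries that went in opposite directions. The entry named TNF had 4.67 and 0.957 FPKM (log2 ratio -2.29) and the entry that joins LTA and TNF had 6.36 and 52.1 FPKM (log2 ratio 3.04), so no direction is given for TNF. IL1RN, the interleukin-1 receptor antagonist, was listed at 702 FPKM at D15 and at 0 at D90.

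Chemokines followed the same direction, with 13 of 22 genes 2-fold higher and 2 at least 2-fold lower, and a median of 1.62, which was 0.25 when genes from 0.1 FPKM were included. CCL2, which attracts monocytes, had 122 FPKM at D15 and 1550.5 FPKM at D90 (log2 ratio 3.67). CCL4 had 86.2 FPKM at D15 and 1324 FPKM at D90 (log2 ratio 3.94), and CCL20, an attractant of CCR6-bearing cells, had 1.57 FPKM at D15 and 42.7 FPKM at D90 (log2 ratio 4.76). CCL14 was the second most abundant symbol at D90, with 2382 FPKM at D15 and 7509 FPKM at D90 (log2 ratio 1.66). The receptor CXCR4, which holds leukocytes toward CXCL12, had 199 and 1297 FPKM (log2 ratio 2.71). CCL28, a mucosal chemokine made by epithelium that draws antibody-secreting cells to the udder, was lower at 10.5 FPKM at D15 and 0.638 FPKM at D90 (log2 ratio -4.04). CXCR3, a receptor of activated T cells, was lower at 4.69 and 2.09 FPKM (log2 ratio -1.17). Without CCL14 the list summed to 1337 FPKM at D15 and 7569.8 FPKM at D90.

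Neutrophil markers were mostly higher or level. Of 21 compared, 9 were 2-fold higher and 1 was 2-fold lower, with a median of 0.82. GPR84, a receptor for medium-chain fatty acids, had 28.6 FPKM at D15 and 644 FPKM at D90 (log2 ratio 4.49), and MCEMP1 had 20.5 FPKM at D15 and 267 FPKM at D90 (log2 ratio 3.71). NCF1, a cytosolic subunit of the NADPH oxidase, had 296 and 971 FPKM (log2 ratio 1.71). The calprotectin genes S100A8 and S100A9, the most abundant proteins of the neutrophil cytosol, were close to level. S100A8 had 1652 and 1276 FPKM (log2 ratio -0.37) and S100A9 had 1001 and 994 FPKM. The receptor CSF3R, in a joined entry, had 310.4 and 469 FPKM (log2 ratio 0.60).

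Macrophage and dendritic cell markers were higher in 7 of 17 by 2-fold and lower in 2, with a median of 0.92. The higher ones included joined entries, of ADGRE1 with VAV1 and an unnamed gene, and of XCR1 with an unnamed gene. With single symbols only, 5 of 15 were 2-fold higher and 2 at least 2-fold lower, with a median of 0.70. CD68, a lysosomal protein of macrophages, had 169 FPKM at D15 and 1211 FPKM at D90 (log2 ratio 2.84). MRC1, the mannose receptor, had 1.57 and 13.2 FPKM (log2 ratio 3.07). GPNMB, a glycoprotein of lipid-laden macrophages, had 39.4 FPKM at D15 and 231 FPKM at D90 (log2 ratio 2.55). The complement C1q chains went the other way. C1QC had 144 and 42.9 FPKM (log2 ratio -1.75) and C1QA had 145 and 60.3 FPKM (log2 ratio -1.27). APOE was listed at 0 at D15 and at 4414 FPKM at D90, and without it the list summed to 1196 and 2764 FPKM.

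T and NK cell markers were lower at D90. Of 27 compared, 15 were 2-fold lower and 2 were 2-fold higher, and the median was -1.05. CD3E, a chain of the T cell receptor complex, had 65.5 FPKM at D15 and 31.7 FPKM at D90 (log2 ratio -1.05). LCK, the kinase that starts its signal, had 30.9 FPKM at D15 and 9.45 FPKM at D90 (log2 ratio -1.71). Of the coreceptors, CD4 had 25.1 and 8.37 FPKM (log2 ratio -1.58) and CD8A had 10.7 and 3.53 FPKM (log2 ratio -1.61). GATA3, a factor of T cells that is also made by mammary epithelium, had 4.99 and 0.7697 FPKM (log2 ratio -2.70). The 2 genes that were 2-fold higher were CCR7, with 28.6 and 114 FPKM (log2 ratio 2.00), and IL7R, with 20.04 and 57.2 FPKM (log2 ratio 1.51), and both are also expressed outside T cells. NKG7, a granule protein of cytotoxic cells, was close to level at 63.3 and 71.00 FPKM.

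B and plasma cell markers were low on both days, with 5 of 12 at least 2-fold lower, 1 at least 2-fold higher and a median of -0.69. With 1 FPKM added to both values 1 of 12 was 2-fold lower, and with the scaling to the summed FPKM 2 were lower and 2 higher. CD79A, a chain of the B cell receptor, had 6.93 and 4.22 FPKM (log2 ratio -0.71). IRF4, a factor of activated lymphocytes and dendritic cells, was higher at 3.06 and 7.69 FPKM (log2 ratio 1.33). The 8 red blood cell genes found were under 1 FPKM on both days and gave no ratio. Of 17 genes of fibroblasts, endothelium and myoepithelium, 4 could be compared. TAGLN, a smooth muscle and myoepithelial protein, had 12.5 and 0.565 FPKM (log2 ratio -4.46), and VWF, a marker of endothelium, had 9.99 and 15.95 FPKM (log2 ratio 0.68).

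Interferon response genes had a median below 0, while their share of 2-fold lower genes was near that of all genes (22.2%). Of 26 compared, 7 were 2-fold lower and 1 was 2-fold higher, with a median of -0.56. ISG15, a ubiquitin-like modifier, had 4494 FPKM at D15 and 1373 FPKM at D90 (log2 ratio -1.71). RSAD2 (viperin) had 62.4 FPKM at D15 and 10.6 FPKM at D90 (log2 ratio -2.56), and IFI6 had 327 and 94.96 FPKM (log2 ratio -1.78). All 3 are induced by type I interferon. IRF1, which answers interferon gamma and NF-kB, was the member that was 2-fold higher, with 159 and 387 FPKM (log2 ratio 1.28). Members with small differences included MX2, at 28.8 and 27.6 FPKM.

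Antigen presentation by MHC class I was balanced, with a median of 0.02 over 16 genes, 1 at least 2-fold higher and 2 at least 2-fold lower. B2M, the light chain of class I molecules, had 3716 FPKM at D15 and 10721 FPKM at D90 (log2 ratio 1.53) and was the most abundant symbol at D90. The immunoproteasome subunits PSMB8 and PSMB10, induced by interferon gamma, were lower. PSMB8 had 605 and 259 FPKM (log2 ratio -1.23) and PSMB10 had 206 and 73.4 FPKM (log2 ratio -1.49). For class II, 5 entries could be compared. BOLA-DRB3, a class II beta chain, had 892 and 482 FPKM (log2 ratio -0.89), and CIITA, the regulator of class II genes, had 7.15 and 3.13 FPKM (log2 ratio -1.19). The entry that joins ARNT, CTSK and CTSS, which holds cathepsin S, had 449 and 1292 FPKM (log2 ratio 1.53).

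Leukocyte adhesion genes were 2-fold higher in 6 of 20 and 2-fold lower in 0, with a median of 0.77. The entry that joins ICAM1, ICAM4 and ICAM5 had 30.2 FPKM at D15 and 913 FPKM at D90 (log2 ratio 4.92). CD69, an early activation marker of leukocytes, had 14.5 FPKM at D15 and 326 FPKM at D90 (log2 ratio 4.49). CD44, the hyaluronan receptor, had 399 and 973 FPKM (log2 ratio 1.29). The integrins were nearer to level, and ITGB2, the common beta chain of leukocyte integrins, had 152 and 179 FPKM (log2 ratio 0.24).

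The actin list had a median of 0.14 over 37 genes, with 8 at least 2-fold higher and 1 at least 2-fold lower. TMSB10, an actin-binding thymosin and the third most abundant symbol on both days, had 7932 and 6151 FPKM (log2 ratio -0.37). ACTB had 1987 and 2887 FPKM (log2 ratio 0.54). Members of the Arp2/3 complex, which branches actin filaments, differed from each other, as ACTR3 had 77.1 and 256 FPKM (log2 ratio 1.73) and ARPC1B had 976 and 745 FPKM (log2 ratio -0.39). MYL6, a myosin light chain, was lower at 3095 and 1304 FPKM (log2 ratio -1.25). TMSB4X had 0.123 and 6.51 FPKM (log2 ratio 5.72), low values for a gene that is abundant in most leukocytes.

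In the JAK-STAT list, 8 of 24 genes were 2-fold higher and 2 at least 2-fold lower, with a median of 0.75. With 1 FPKM added to both values 4 were 2-fold higher. TYK2, a kinase of interferon and interleukin receptors, had 11.9 FPKM at D15 and 157 FPKM at D90 (log2 ratio 3.72). PIAS1, an inhibitor of STAT signalling, had 4.97 FPKM at D15 and 49.4 FPKM at D90 (log2 ratio 3.31). SOCS1, a feedback inhibitor induced by interferon, was lower at 11.9 and 4.305 FPKM (log2 ratio -1.46), and SOCS3 was close to level at 126 and 110.1 FPKM (log2 ratio -0.19). Of 34 AP-1, CREB and C/EBP factors, 10 were 2-fold higher and 7 at least 2-fold lower, with a median of 0.30. JUNB, an AP-1 subunit, had 387 FPKM at D15 and 1195 FPKM at D90 (log2 ratio 1.63). CREB1, the cyclic AMP response factor, had 3.92 and 27.7 FPKM (log2 ratio 2.82), and NFE2L2, the regulator of antioxidant genes, had 18.4 and 125 FPKM (log2 ratio 2.77). The lower members were led by CREB3L1, a membrane-bound factor of secretory cells, at 16.8 and 1.81 FPKM (log2 ratio -3.22).

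Genes of hypoxia, VEGF and glycolysis were higher in 15 of 34 by 2-fold and lower in 1, with a median of 0.87. HIF1A, the oxygen-regulated factor, had 20.3 FPKM at D15 and 159 FPKM at D90 (log2 ratio 2.96). VEGFA, the vascular growth factor it induces, had 37.2 FPKM at D15 and 331 FPKM at D90 (log2 ratio 3.15). LDHA, which makes lactate from pyruvate, had 242 FPKM at D15 and 976 FPKM at D90 (log2 ratio 2.01). BNIP3, a mitophagy receptor, had 86.8 and 258 FPKM (log2 ratio 1.57). The glycolytic enzyme ALDOA, the most abundant member, was within 2-fold at 1786 and 2596 FPKM (log2 ratio 0.54). PFKM, the muscle-type phosphofructokinase, was lower at 1.42 and 0.3102 FPKM (log2 ratio -2.20).

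The NADPH oxidase and antioxidant list had 10 of 27 genes 2-fold higher and 4 at least 2-fold lower, with a median of 0.45. CYBB, the catalytic subunit of the phagocyte oxidase, had 19.03 FPKM at D15 and 113 FPKM at D90 (log2 ratio 2.56). SRXN1, which repairs peroxiredoxins, had 30.2 and 159 FPKM (log2 ratio 2.40), and GPX3 had 7.41 and 57.99 FPKM (log2 ratio 2.97). GSS, glutathione synthetase, was lower at 60.97 FPKM at D15 and 7.06 FPKM at D90 (log2 ratio -3.11). In the plasmin system, 7 of 17 genes were 2-fold higher and 2 at least 2-fold lower, with a median of 0.71. PLAU, the urokinase that activates plasminogen, had 131 FPKM at D15 and 807 FPKM at D90 (log2 ratio 2.63). The receptor PLAUR, the most abundant member, had 699 and 1237 FPKM (log2 ratio 0.82). TIMP3, an inhibitor of matrix proteases, was lower at 12.1 and 2.88 FPKM (log2 ratio -2.07).

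Lysosomal genes were 2-fold higher in 8 of 24 and 2-fold lower in 2, with a median of 0.47. CTSB, cathepsin B, had 3772 and 4479 FPKM (log2 ratio 0.25) and was the most abundant member on both days. LAMP2 had 37.97 and 119 FPKM (log2 ratio 1.65), while CTSW, a cathepsin of cytotoxic lymphocytes, was lower at 54.2 and 13.7 FPKM (log2 ratio -1.99). In the iron list, 4 of 9 genes were 2-fold higher and 0 lower, with a median of 0.96. STEAP4, a metalloreductase, had 17.9 FPKM at D15 and 137 FPKM at D90 (log2 ratio 2.93), and the transferrin receptor TFRC, joined with ZDHHC19, had 6.57 and 29.7 FPKM (log2 ratio 2.18). FTH1, the ferritin heavy chain, was listed at 4706 FPKM at D15 and at 0 at D90, an opposite listing to that of APOE.

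Of 8 genes of tryptophan breakdown, 3 were 2-fold higher and 1 at least 2-fold lower, with a median of 0.02. KMO had 1.21 FPKM at D15 and 24.8 FPKM at D90 (log2 ratio 4.36) and KYNU had 1.202 and 5.89 FPKM (log2 ratio 2.29). Both act after kynurenine has formed. IDO1, the first enzyme, was within 2-fold at 16.6 and 12.8 FPKM (log2 ratio -0.38), and IDO2 had 1.16 and 0.0531 FPKM (log2 ratio -4.45). Prostaglandin and leukotriene genes were divided, with 5 of 17 at least 2-fold higher, 6 at least 2-fold lower and a median of -0.33. PTGS2, the inducible cyclooxygenase, had 4.23 FPKM at D15 and 27.3 FPKM at D90 (log2 ratio 2.69). PTGES, a synthase of prostaglandin E2, was lower at 10.9 and 2.92 FPKM (log2 ratio -1.89), and ALOX15, a lipoxygenase, was lower at 14.4 FPKM at D15 and 0.667 FPKM at D90 (log2 ratio -4.43).

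**Figure D3:**
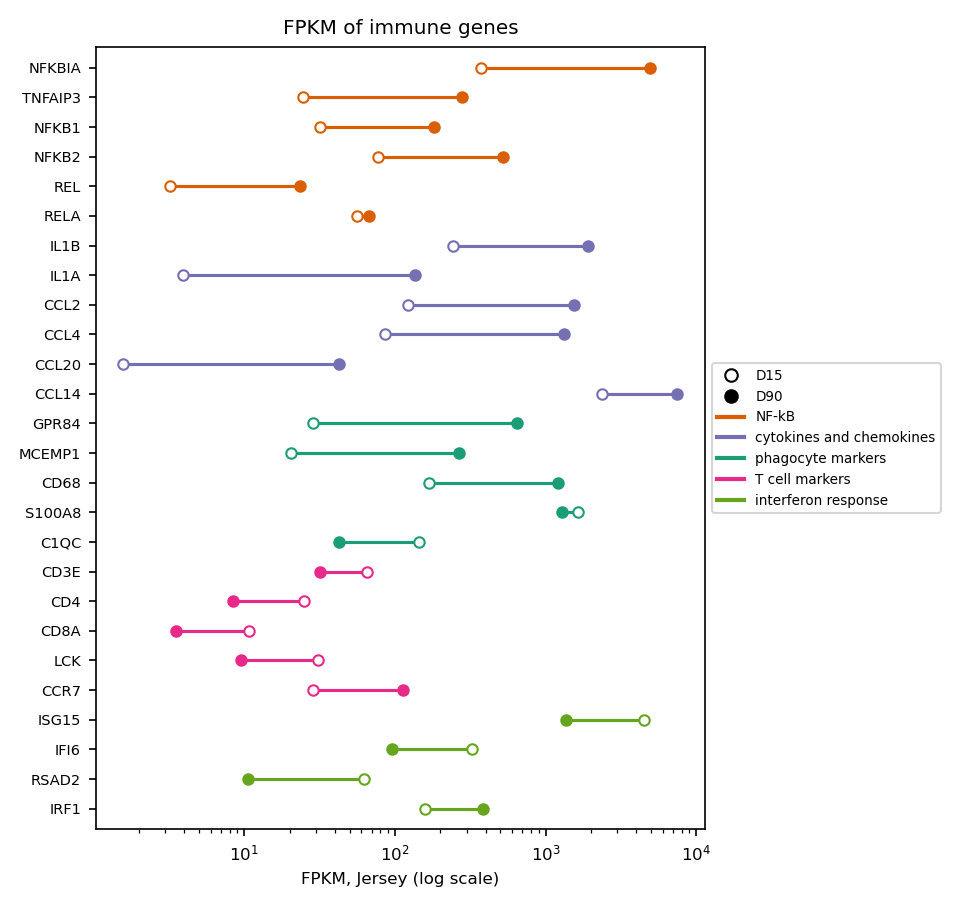
FPKM of 26 immune genes in Jersey cattle on a log axis, with an open circle for D15 and a filled circle for D90 joined by a line, and 1 value per group. The NF-kB, cytokine and chemokine genes shift to the right at D90 (NFKBIA from 371 to 4932 FPKM), the T cell markers except CCR7 and the interferon genes except IRF1 shift to the left, and S100A8 stays within 2-fold.

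The cytosolic ribosomal protein genes were lower as a group. Of 51 entries found, 44 reached 1 FPKM, 27 of these were 2-fold lower and 0 at least 2-fold higher, and the median was -1.25. They held 17.9% of the FPKM of all names at D15 and 7.99% at D90. RPLP1, the most abundant symbol at D15, had 9184 FPKM at D15 and 3007 FPKM at D90 (log2 ratio -1.61). RPS2 had 6719 and 1689.9 FPKM (log2 ratio -1.99) and RPS28 had 8889 and 2613 FPKM (log2 ratio -1.77). The genes of this one particle did not share a single ratio, since RPS27 had 1174 and 1568 FPKM (log2 ratio 0.42) and RPL39 1144 and 1164 FPKM. With the scaling to the summed FPKM the median was -0.98 and 21 genes were 2-fold lower. These genes are a large part of that sum, so this scaling is not independent of them. Translation factors were closer to level, with a median of -0.09 over 28 genes, 4 at least 2-fold higher and 1 at least 2-fold lower. EEF1G, a subunit of elongation factor 1, was lower at 1685 and 563 FPKM (log2 ratio -1.58), and EIF4E, the cap-binding protein, was higher at 9.73 and 35.2 FPKM (log2 ratio 1.86).

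Mitochondrial ribosomal proteins were 2-fold lower in 27 of 69 genes and 2-fold higher in 1, with a median of -0.80. With the scaling to the summed FPKM 15 were 2-fold lower and 3 at least 2-fold higher. MRPL41 had 513 and 113 FPKM (log2 ratio -2.19) and MRPS34 had 209.8 and 41.8 FPKM (log2 ratio -2.33), whereas MRPS36 had 4.89 and 25.6 FPKM (log2 ratio 2.39). Subunits of the respiratory chain encoded in the nucleus were 2-fold lower in 16 of 56 and 2-fold higher in 4, with a median of -0.49, and with that scaling 8 were 2-fold lower and 6 at least 2-fold higher. Within complex I, NDUFB7 had 433 and 116 FPKM (log2 ratio -1.90) and NDUFA12 had 19.03 and 42.1 FPKM (log2 ratio 1.14). Subunits of the same complex thus lay on both sides of the median. In complex III, UQCRB had 35.6 and 108 FPKM (log2 ratio 1.61). The mitochondrial genes encoded in the organelle fell into 4 joined entries, 3 of which were listed at 0 at D90. Proteasome subunits were nearly level, with a median of -0.11 over 29 genes, 1 at least 2-fold higher and 3 at least 2-fold lower, which became 4 and 0 with the scaling to the summed FPKM.

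Cell cycle genes were low and mostly lower at D90, with 13 of 34 at least 2-fold lower, 2 at least 2-fold higher and a median of -0.62. CCNB2, a mitotic cyclin, had 10.6 and 2.03 FPKM (log2 ratio -2.38). MCM2, a subunit of the replicative helicase, had 11.4 and 2.22 FPKM (log2 ratio -2.36), and MKI67 had 2.38 and 0.936 FPKM (log2 ratio -1.34). CCND1, the cyclin of growth factor signalling, had 2.84 and 0.475 FPKM (log2 ratio -2.58). The inhibitor CDKN1A (p21) was higher at 119.8 FPKM at D15 and 246 FPKM at D90 (log2 ratio 1.04). Genes of the BCL2 family, caspases and death receptors had a median of 0.20 over 26, with 5 at least 2-fold higher and 4 at least 2-fold lower. BCL2A1, a survival protein of leukocytes, had 177 FPKM at D15 and 1089 FPKM at D90 (log2 ratio 2.62). CASP4, an inflammatory caspase, had 84.2 FPKM at D15 and 369 FPKM at D90 (log2 ratio 2.13). BAD, a death-promoting member, was lower at 65.96 and 20.7 FPKM (log2 ratio -1.68), and FADD, the adaptor of death receptors, was lower at 238 and 75.3 FPKM (log2 ratio -1.66).

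Chaperones of the endoplasmic reticulum had a median of 0.39 over 27 genes, with 5 at least 2-fold higher and 3 at least 2-fold lower. ATF4, a factor of the integrated stress response, had 670.3 and 1147 FPKM (log2 ratio 0.78), and DNAJB9, a chaperone cofactor, had 2.85 and 14.6 FPKM (log2 ratio 2.35). CHAC1, a target of ATF4, was lower at 3.65 and 1.11 FPKM (log2 ratio -1.72). Cytosolic heat shock genes had a median of 0.48 over 14, with 1 at least 2-fold higher and 1 at least 2-fold lower. The lower gene was CRYAB, a small heat shock protein, with 126 FPKM at D15 and 17.3 FPKM at D90 (log2 ratio -2.86).

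Of 15 circadian clock genes, 3 were 2-fold higher and 5 at least 2-fold lower, with a median of -0.47, which was 0.66 over the 4 members with at least 10 FPKM in either group. The output factor DBP had 15.4 and 4.89 FPKM (log2 ratio -1.65), and its relatives TEF and HLF were lower too, with 3.34 and 0.404 FPKM (log2 ratio -3.05) for HLF. BHLHE40, a repressor in the clock loop, was higher at 56.2 and 151 FPKM (log2 ratio 1.42). The hours of milking on each day were not given in the sources used here. Nuclear receptors had a median of 0.20 over 22 genes, with 4 at least 2-fold higher and 5 at least 2-fold lower. PPARG, a regulator of lipid genes, had 5.25 and 10.6 FPKM (log2 ratio 1.01), and NR3C2, the mineralocorticoid receptor, had 1.06 and 0.0507 FPKM (log2 ratio -4.38).

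Genes of sterol efflux had a median of -0.11 over 13, with 1 at least 2-fold higher and 3 at least 2-fold lower. ABCA1, the cholesterol exporter of macrophages, had 4.26 and 9.58 FPKM (log2 ratio 1.17). Glycan transferases had a median of 0.09 over 17 genes, with 5 at least 2-fold higher and 1 at least 2-fold lower. ST3GAL6, a sialyltransferase, had 2.91 FPKM at D15 and 28.5 FPKM at D90 (log2 ratio 3.29). Antimicrobial and acute phase genes had a median of -0.01 over 15, with 5 in each direction by 2-fold, and 0.71 over members with at least 1 FPKM on both days. PIGR, the receptor that carries immunoglobulin A across the epithelium, was lower at 71.4 FPKM at D15 and 4.76 FPKM at D90 (log2 ratio -3.91). PTX3, a soluble pattern receptor made by phagocytes, was higher at 26.5 FPKM at D15 and 244 FPKM at D90. NOS2, the inducible nitric oxide synthase, had 34.5 and 171 FPKM (log2 ratio 2.31), and LYZ, lysozyme, had 56.6 and 271 FPKM (log2 ratio 2.26).

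MicroRNA gene entries and small RNA entries were measured in libraries of polyadenylated RNA, so their FPKM does not count mature microRNAs. Of 540 microRNA gene entries, 57 could be compared, 13 were 2-fold higher and 10 at least 2-fold lower, with a median of 0.14. Many of these share a joined name, and so a value, with another gene such as ACTG1. Over the 22 single names 8 were 2-fold higher and 3 at least 2-fold lower, with a median of 0.43. The entry bta-mir-146a, whose gene is induced by NF-kB, had 2.65 FPKM at D15 and 42.01 FPKM at D90 (log2 ratio 3.99). The entry bta-mir-155, from another gene known for induction in activated leukocytes, had 0.122 FPKM at D15 and 2.44 FPKM at D90 (log2 ratio 4.32). The entry bta-mir-375 was lower at 4.18 and 0.0772 FPKM (log2 ratio -5.76). Of 80 small nucleolar and nuclear RNA entries, 43 were 2-fold higher and 10 at least 2-fold lower, with a median of 1.19. They included Y_RNA, with 1.97 and 113 FPKM (log2 ratio 5.84), and SNORA17 in the other direction, with 1964 and 223 FPKM (log2 ratio -3.14). The name Y_RNA is carried by 17 entries and SNORA17 by 7, and for each the entry highest on average was used.

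Over all symbols with at least 1 FPKM on both days, the largest ratios toward D90 included genes on no list. DMXL2, a regulator of vesicle acidification, had 4.94 FPKM at D15 and 189 FPKM at D90 (log2 ratio 5.26). EVI2B, a membrane protein of blood cells, had 17.2 FPKM at D15 and 397 FPKM at D90 (log2 ratio 4.53). TNFSF9, the ligand of the T cell costimulator 4-1BB, had 6.88 FPKM at D15 and 145 FPKM at D90 (log2 ratio 4.40). OCSTAMP, a protein of osteoclast and giant cell fusion, had 18.1 FPKM at D15 and 194 FPKM at D90 (log2 ratio 3.42). FGR, a Src-family kinase of myeloid cells, had 39.5 and 418 FPKM (log2 ratio 3.40), and PDE4B, a phosphodiesterase of cyclic AMP, had 19.8 and 207 FPKM (log2 ratio 3.38). Each of these was higher by more than 10-fold.

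Among symbols with at least 1 FPKM on both days, the largest ratios toward D15 were led by ADIRF, with 75.3 FPKM at D15 and 1.25 FPKM at D90 (log2 ratio -5.91). TFF3, a secreted trefoil peptide of mucous epithelia, had 513 FPKM at D15 and 9.29 FPKM at D90 (log2 ratio -5.79). AZGP1, zinc-alpha-2-glycoprotein, had 139 FPKM at D15 and 2.79 FPKM at D90 (log2 ratio -5.64). Both are secretory products of epithelium. CITED4, a cofactor expressed in mammary epithelium, had 194 FPKM at D15 and 5.41 FPKM at D90 (log2 ratio -5.17). Among genes with at least 10 FPKM on both days, S100A2 had 412 FPKM at D15 and 28.9 FPKM at D90 (log2 ratio -3.83) and WFDC2 had 158 and 19.8 FPKM (log2 ratio -3.00).

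The 10 most abundant symbols at D15 included 7 ribosomal protein genes, and at D90 1, RPS12, with 5721 and 3089.7 FPKM (log2 ratio -0.89). At D90 the leading symbols were B2M, CCL14 and TMSB10. SRGN, the proteoglycan of leukocyte granules, had 1545 FPKM at D15 and 5250.2 FPKM at D90 (log2 ratio 1.76). SDS, serine dehydratase, was among the highest on both days with 5009 and 5469 FPKM (log2 ratio 0.13). Symbols with values in 1 group and a listing of 0 in the other were led at D15 by FTH1, SPP1 and IL1RN and at D90 by APOE, PAEP, CSN2 and CSN1S1. The lists of symbols at 0 otherwise held mainly small RNA entries with lower values, such as SCARNA18 at 109 FPKM at D15.

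**Figure D4:**
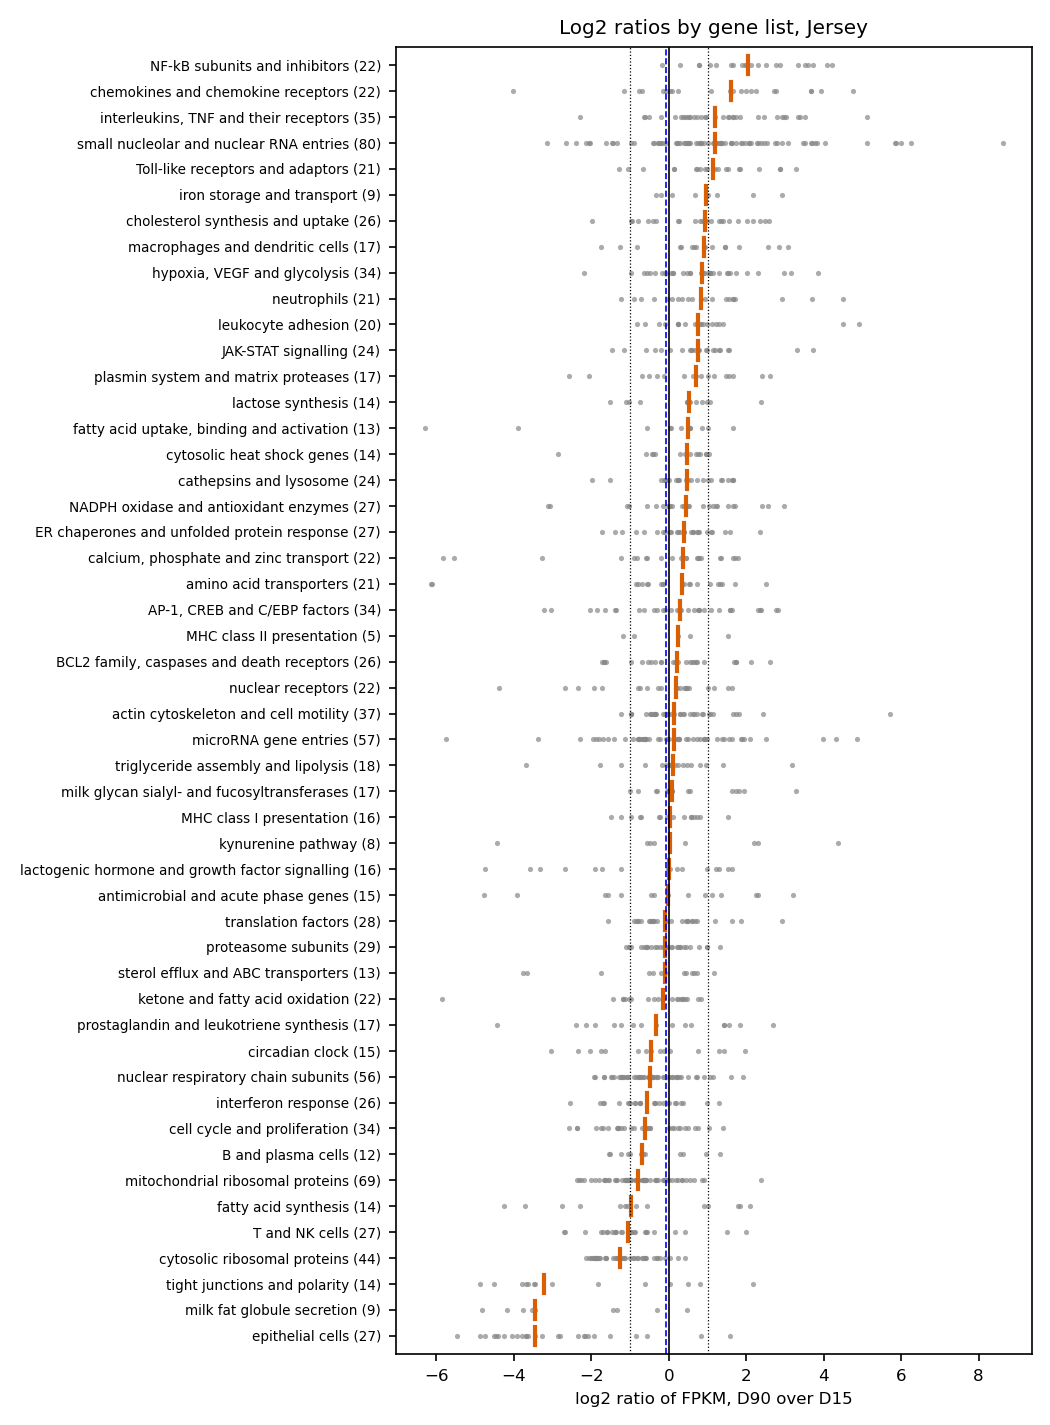
Log2 ratio of FPKM, D90 over D15, for the genes of each of the 50 lists with at least 5 genes compared, with 1 grey point per gene, an orange bar at the list median and the number of genes in parentheses. The dashed line marks the median of all genes (-0.08) and the dotted lines 2-fold, and the medians run from 2.06 for the NF-kB list to -3.45 for the epithelial and fat globule lists.

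The table also gave Jersey values on day 250 (D250). No ratio of D250 to either day is given here, since all such ratios would share a group with the ratios above. KRT19 had 835 FPKM at D250, between its values on the other days. FASN was at 228 FPKM at D250, ELF5 at 349 FPKM and XDH at 986 FPKM. NFKBIA had 3889.8 FPKM and CD3E 19.5 FPKM. Over the 3 days in order, the median FPKM of the epithelial list stood at 19.97, 3.12 and 7.54. The NF-kB list stood at 28.1, 103 and 214 FPKM.

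Kashmiri cattle, sampled on the same days, gave ratios from other samples, and the difference between breeds was not tested. Over 11238 genes, 21% were 2-fold higher and 23% 2-fold lower at D90 in Kashmiri cattle, with a median of -0.01. Epithelial markers had a median of -3.45 in Jersey and -2.28 in Kashmiri cattle, and fat globule genes -3.45 and -2.18. NF-kB genes had a median of 2.06 in Jersey and 0.85 in Kashmiri cattle. These 3 lists had the same sign in both breeds. The T and NK cell median was 1.71 in Kashmiri cattle against -1.05 in Jersey cattle. CD3E had 146 and 659 FPKM in Kashmiri cattle at D15 and D90. Cell cycle genes had a median of -0.62 in Jersey and 1.14 in Kashmiri cattle, and ribosomal protein genes had -1.25 and -0.34.

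**Figure D5:**
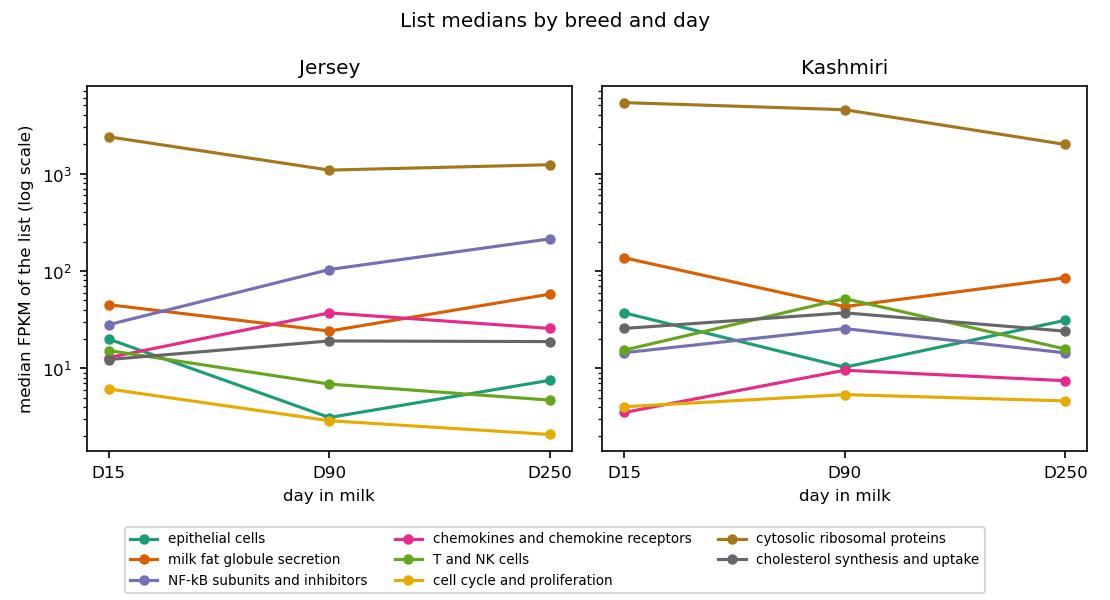
Median FPKM (log axis) of 8 gene lists at D15, D90 and D250, with Jersey cattle on the left and Kashmiri cattle on the right, over the genes compared in Jersey between D15 and D90, and 1 value per gene and group. In Jersey cattle the epithelial line has its low point at D90 (3.12 FPKM) and the NF-kB line goes from 28.1 to 103 FPKM, and the T and NK cell line goes from 15.2 to 6.89 FPKM in Jersey and from 15.3 to 52.0 FPKM in Kashmiri cattle.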

How the data were processed

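RNA from bead-captured milk cells of Jersey and Kashmiri cattle was sequenced from stranded libraries of polyadenylated RNA. The authors trimmed reads with Trimmomatic, mapped them with Bowtie2 and TopHat on cattle genome UMD3.1 (named in the submitters' processing notes), and ran Cufflinks and Cuffdiff to obtain gene values. The deposited values are FPKM, scaled by the authors to transcript length and mapped fragments, with 1 value per gene and group. Which libraries entered the Jersey D90 value is not stated, and reads per gene were not analysed here. Groups were taken from the sample labels, and the column named Local was read as Kashmiri because the labels hold only these breeds.

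Named entries were kept, a repeated name was taken from the entry with the highest mean over the 6 groups, and names with at least 1 FPKM in either Jersey group were compared as log2 of D90 over D15, with no pseudocount. A value of 0 gave no ratio, since an exact 0 can be a failed estimate. With 1 value per group there was no test, and a ratio of at least 2 was counted as a description. The 54 gene lists and the comparison itself were chosen with earlier results of these data known. A listed gene was looked up by its own name and otherwise within a joined name, and a list median is given for the 50 lists with at least 5 genes compared.

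Genes were named by rule. These were, of each list, members with the highest FPKM or the largest ratio and those listed at 0, up to 8 with a few added for contrast after their values were seen. To these came the 15 symbols with the largest and smallest ratios at limits of 1 and 10 FPKM in both groups, the 10 highest symbols of each group, and the 10 highest listed at 0 in the other. Some genes that the rule names are not reported here, though list counts and medians include them. Promoter sequences were planned but not used here. Alternatives were pseudocounts of 1 and 0.1, limits of 0.1 FPKM and 10 FPKM in either group and 1 FPKM in both, rescaling by the upper quartile or by the sum of named genes without milk proteins, other choices of repeated entry, single symbols only, and a 4-fold limit. The code was tested on simulated data. Calculations ran in Python 3.11.15 with pandas 2.3.3 and numpy 2.4.6, and plots were drawn with matplotlib 3.10.9.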

Additional observations from a re-analysis of the deposited data

Results flagged for a closer look

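In 3 gene lists the median log2 ratio of D90 over D15 was below 0 in Jersey cattle and above 0 in Kashmiri cattle, and at least 0.58 from 0 in both. The difference between the breeds was not tested, because each group had 1 value per gene.

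The T and NK cell list had a median log2 ratio of -1.05 in Jersey cattle, where 23 of 27 genes were lower at D90. In Kashmiri cattle the median was 1.71, and 25 of 28 genes were higher. The B and plasma cell list had a median of -0.69 in Jersey cattle, with 8 of 12 genes lower, and of 2.24 in Kashmiri cattle, with 12 of 12 genes higher. Over the genes compared in Jersey cattle, the median Kashmiri FPKM of this list was 0.99 at D15 and 6.21 at D90. A member under 1 FPKM at D15 passes the limit only through its D90 value. It must then be higher at D90, so the count of 12 is partly set by the limit. The cell cycle list had a median of -0.62 in Jersey cattle, with 24 of 34 genes lower, and of 1.14 in Kashmiri cattle, with 30 of 35 genes higher. With the scaling to the summed FPKM, the Jersey medians were -0.42 for B and plasma cells and -0.36 for the cell cycle. Both are smaller in size than the 0.58 used above. The Jersey T and NK cell median was then -0.78. The alternatives were run in Jersey cattle only.

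In 10 other lists the medians also had opposite signs, with at least 1 of the pair nearer to 0. Interferon response genes, for example, had a median of -0.56 in Jersey cattle, with 19 of 26 genes lower, and of 0.17 in Kashmiri cattle, with 18 of 26 higher. The circadian clock list had -0.47 and 0.32, and antimicrobial genes had -0.01 and 1.14.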

How the results depend on the processing

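No paired analysis was possible because each group had 1 value per gene, and for the same reason no sample could be left out in turn. With a limit of 10 FPKM in either group, 982 genes were 2-fold higher and 1270 lower at D90, among 5654 compared. With a 4-fold limit the counts were 564 and 887. Every other alternative left both counts within 1.5 times. Of calls, 44.1% were higher at D90 as deposited, 51.9% after scaling by the upper quartile and 58.9% after scaling to the summed FPKM. These scalings moved the median of all genes from -0.08 to 0.06 and 0.18.

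Over 50 list medians and 499 alternatives, 488 stayed within 0.58 of the value in the text and 11 did not. With 1 FPKM added, the median was -2.23 for fat globule secretion, -2.48 for epithelial cells and -1.09 for tight junctions. With a limit of 1 FPKM in both groups it was -1.45 for fat globule secretion and 0.71 for antimicrobial genes. With 10 FPKM in either group it was -2.49 for fat globule secretion, -0.98 for prostaglandin synthesis and 0.66 for the circadian clock, which turned positive. With 0.1 FPKM it was -0.63 for lactogenic signalling, which turned negative, -2.42 for tight junctions and 0.25 for chemokines. Among the alternatives, the balance of 2-fold calls turned at least once in 11 lists and the sign of the median in 15. Of those for which the text gives no such value, triglyceride assembly became 4 higher and 2 lower and MHC class I 2 and 1 with the scaling to the summed FPKM, under which the medians were 0.15 for sterol efflux and 0.18 for translation factors. Calcium, phosphate and zinc transport became 3 higher and 4 lower with 1 FPKM added, and nuclear receptors 4 higher and 2 lower with 1 FPKM in both groups. With all named entries, prostaglandin synthesis had a median of 0.08 and the kynurenine pathway -0.38. With single symbols MHC class II had -0.33. MicroRNA gene entries became 18 higher and 19 lower with a limit of 0.1 FPKM, with a median of -0.05. With 10 FPKM in either group their median was -0.06. Limits on FPKM change which low genes enter a list. Reads per gene and the spread between cows set the limit on every value and are unknown.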
